A study of Mus musculus with 8 samples.

Results

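The 31 genes described here build, anchor or control the contractile apparatus of smooth muscle, or mark the contractile cells that wrap blood vessels. They were taken from a list of gene names that was drawn up with earlier results of these data known, and all 31 were found among the 43629 genes of the count table. The study sampled intestinal tumors and small intestine of mice with a mutated Apc gene, a tumor suppressor of the Wnt pathway. It holds 4 tumor libraries and 4 small intestine libraries of poly(A) RNA. Both groups carry the strain label C57B6/129, the genotype label APC mutant and the treatment label none, so the small intestine is mutant too and is not a wild type tissue. The sources used here do not give the Apc allele, the age of the mice, the position along the gut or whether the muscle wall stayed with the small intestine samples. The series title concerns high-fructose corn syrup, which no library analysed here is labelled as having received.

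Smooth muscle shortens when calcium activates myosin light chain kinase, which phosphorylates the regulatory light chain of smooth muscle myosin and lets the myosin pull on actin filaments. Calponin, caldesmon, transgelin, smoothelin and the tropomyosins sit along those filaments, desmin and synemin form the intermediate filaments between them, and filamin and alpha-actinin tie them to dense bodies and the membrane. Transcription of many of these genes depends on serum response factor, which binds the CArG box, and on its partner myocardin. In the gut such genes are used by the muscle coats, the thin muscle under the mucosa, vessel walls and pericytes. Several of them, among them Flna, Actn1, Tpm1, Tpm4, Myl6, Tagln2, Cnn2 and Cnn3, are also used by cells that are not muscle.

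Gene-assigned counts ran from 53856561 to 67371180 per tumor library and from 62347648 to 84433335 per small intestine library. The members together took 0.386% to 0.394% of the counts in tumor libraries and 0.146% to 0.154% in small intestine libraries. Levels below are CPM, counts divided by library size and scaled by the trimmed mean of M values (TMM), which assumes that most genes do not change, unless FPKM is named. TMM factors were 1.33 to 1.38 in tumor and 0.687 to 0.788 in small intestine, so scaling by library totals alone moved the median log2 fold change of all genes up by 0.86, to 0.94 against 0.07. The scaling therefore decides some calls. The labels do not say whether each library had its own mouse. P-values therefore measure spread among these samples alone, and that spread may be technical.

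A CArG box (CC, then 6 bases that are each A or T, then GG) was searched for in the 250 bases before the transcription start, because it is the sequence that serum response factor binds. The box reads as the same class of sequence on both strands. RefSeq windows on GRCm38.p6 were at hand for 27 of the 31 members. There was none for Actg2, Myh11, Tagln and Myocd, which were therefore not searched. A perfect box lay in 4 of these 27 (14.8%), against 439 of 27025 genes (1.62%). With 1 base of the core allowed to depart, a box lay in 6 of the 27 (22.2%), Acta2 and Synm being added, against 2643 genes (9.78%). The 4 stretches with a perfect box are shown because these genes encode parts of the same apparatus and yet differ in direction between the tissues. The box is in capitals and each stretch runs 5′ to 3′ on the strand of its gene. The Myl9 stretch is chr2:156775223-156775332 on the plus strand, its box starting 161 bases before the RefSeq start. The Cnn2 stretch is chr10:79988464-79988573 on the plus strand, with the box 56 bases before the RefSeq start. Both of these starts lie a little inside the annotated genes, which begin at chr2:156775420 and chr10:79988584. The Myl6 stretch is chr10:128493046-128493139 on the minus strand, with the box 50 bases before a RefSeq start that lies inside the gene. The Ldb3 stretch is chr14:34588687-34588796 on the minus strand, with the box 35 bases before the RefSeq start.
Myl9: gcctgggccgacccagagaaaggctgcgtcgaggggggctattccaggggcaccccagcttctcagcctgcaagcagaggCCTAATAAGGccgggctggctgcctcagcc
Cnn2: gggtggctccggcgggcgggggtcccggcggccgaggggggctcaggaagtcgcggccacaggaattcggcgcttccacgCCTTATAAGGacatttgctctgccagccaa
Myl6: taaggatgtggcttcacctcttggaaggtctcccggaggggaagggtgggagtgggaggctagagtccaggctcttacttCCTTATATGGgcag
Ldb3: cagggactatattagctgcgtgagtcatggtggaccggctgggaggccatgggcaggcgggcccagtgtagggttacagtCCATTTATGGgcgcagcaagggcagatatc
In tumor Myl9 rose, Ldb3 and Myl6 fell, and Cnn2 was not called, with the values given below. A match of letters is not evidence of binding.

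Most contractile genes were higher in tumor than in small intestine, and Mylk and Ldb3 fell steeply. With TMM scaling 20 of 31 members (64.5%) were called higher in tumor, where 38.9% of all 17029 genes tested were. Only 3 members (9.68%) were called lower, Mylk, Ldb3 and Myl6, where 35.4% of all genes were. Together 23 members (74.2%) were called, a share close to the 74.3% of all genes that were. A gene was called at an adjusted p under 0.05 in the quasi-likelihood test of edgeR, the adjustment (Benjamini-Hochberg) running over all genes. The median log2 fold change of the members was 1.49, beside 0.07 for all genes. In bulk tissue, fewer cells of a type and less RNA per cell cannot be told apart, in either direction.

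With library totals in place of TMM, 27 members (87.1%) were called higher, where 62.0% of all genes were, and 2 (6.45%) lower, where 17.6% were, with 79.6% of all genes called in either direction. The median of the members was then 2.35, beside 0.94 for all genes. Of the 8 members not called with TMM, 7 were called higher with library totals, namely Tagln2, Cnn1, Lmod1, Tpm1, Des, Synm and Pgm5. Cnn2 was called with neither, and Myl6 was called only with TMM. The groups did not overlap, tumor being higher, for 20 members with TMM (37.5% of all genes) and, tumor being lower, for 3 (33.0% of all genes).

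**Figure D1:**
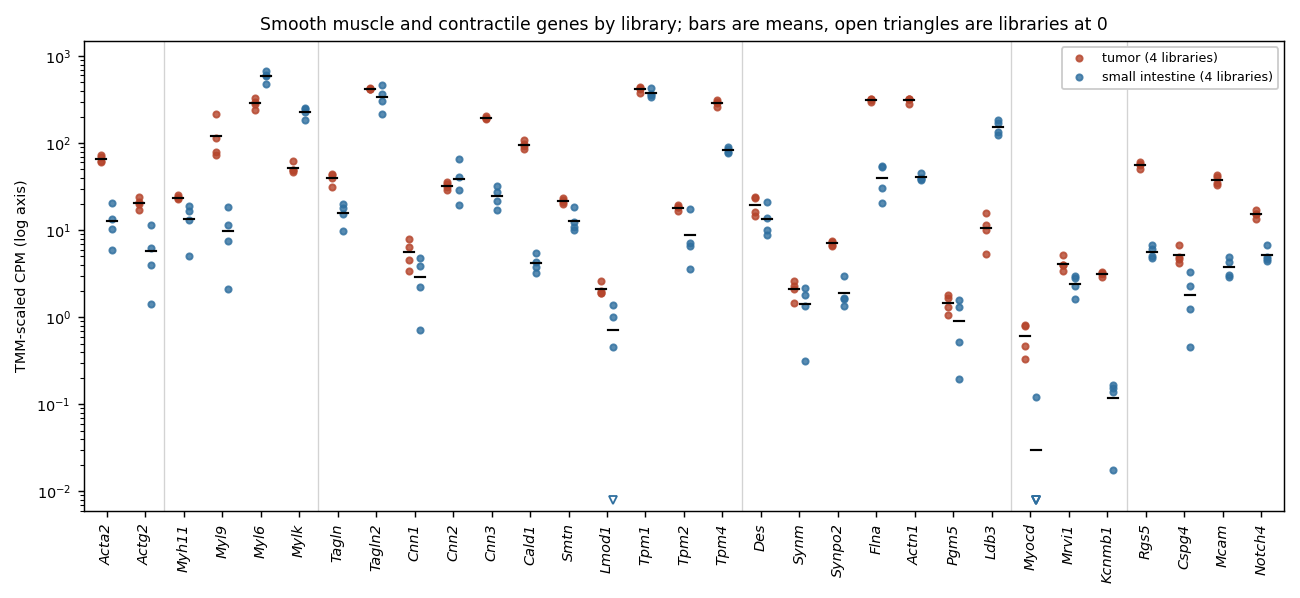
TMM-scaled CPM (log axis) of each of the 31 members in the 4 tumor libraries (red, left) and the 4 small intestine libraries (blue, right); bars are group means, open triangles are libraries with 0 counts, and grey lines divide the roles. The tumor points sit close together for most members, while small intestine points of Actg2, Myl9, Cnn1 and Pgm5 spread over several fold.

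**Figure D2:**
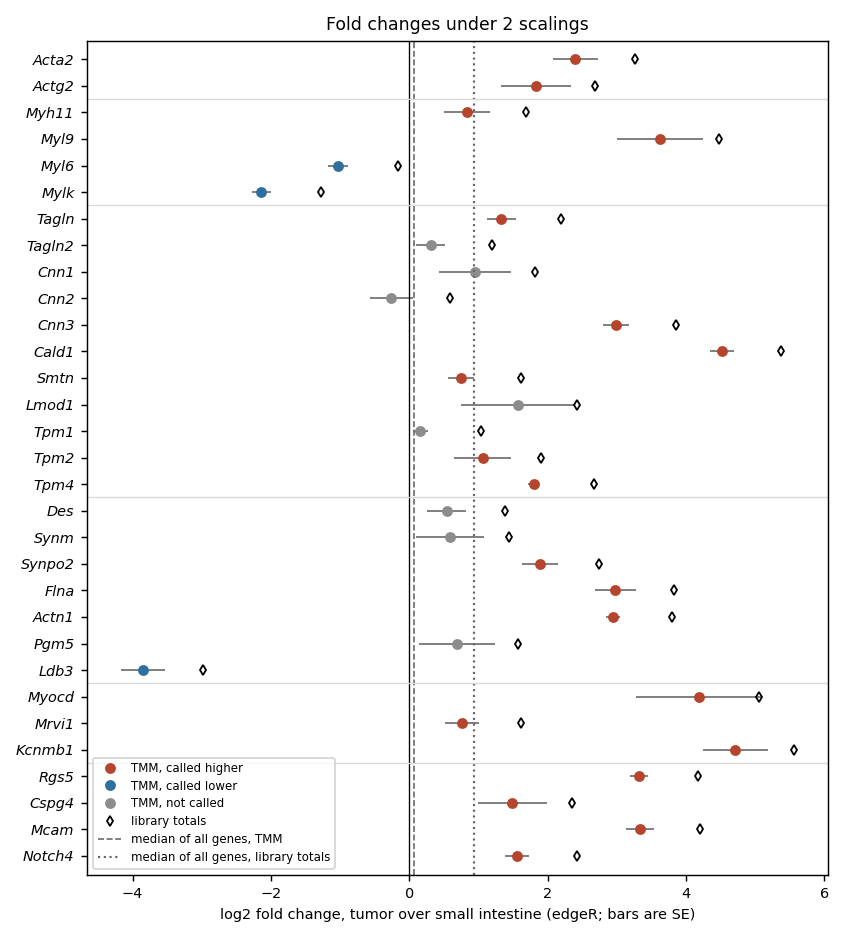
Log2 fold change of tumor over small intestine for each member, as circles with the SE with TMM scaling and as diamonds with library totals; dashed and dotted lines are the medians of all genes, 0.07 and 0.94. Ldb3 and Mylk lie left of 0 with both scalings, and 20 circles are called higher.

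Both smooth muscle actins were called higher in tumor, where 38.9% of all genes were. Acta2, the alpha actin of vascular smooth muscle, pericytes and myofibroblasts (chr19:34241090-34255590; gene coordinates are GRCm38), had 73.4, 61.4, 68.6 and 62.7 CPM in tumor replicates 1 to 4, against 10.2, 5.89, 20.7 and 13.6 CPM in small intestine replicates 1 to 4. Every tumor library lay above every small intestine library, and small intestine replicate 3 came nearest. The log2 fold change was 2.40 ± 0.32 (SE; edgeR adjusted p = 0.00011). Actg2, the gamma actin of visceral smooth muscle (chr6:83512905-83536265), had 20.1, 24.0, 20.9 and 16.9 CPM in tumor, against 3.99, 1.43, 11.4 and 6.21 CPM in small intestine. The groups did not overlap, but small intestine replicate 3 had several times the level of replicate 2. The log2 fold change was 1.83 ± 0.50 (edgeR adjusted p = 0.00795).

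The myosin genes did not move as a unit: the regulatory light chain Myl9 rose steeply, the heavy chain Myh11 rose slightly, and the kinase Mylk and the light chain Myl6 fell. Myl9 had 78.8, 115, 73.9 and 216 CPM in tumor, against 7.50, 2.12, 18.4 and 11.5 CPM in small intestine. Its tumor libraries were uneven, with replicate 4 well above the others, and still none came down to the small intestine range. The log2 fold change was 3.62 ± 0.62 (edgeR adjusted p = 0.00054). Myh11, the smooth muscle myosin heavy chain (chr16:14194535-14291372), had 23.8, 23.2, 25.3 and 22.7 CPM in tumor, against 13.1, 5.04, 18.8 and 16.6 CPM in small intestine. The tumor libraries lay together above all small intestine libraries, of which replicate 2 was far below the rest. Its log2 fold change of 0.83 ± 0.33 just passed (edgeR adjusted p = 0.045). It was called in 3 of the 8 fits that left out a library: the call was lost when any single tumor replicate or small intestine replicate 1 was left out, at edgeR adjusted p of 0.0600 to 0.0925.

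Mylk, the myosin light chain kinase (chr16:34745210-35002420), had 46.3, 49.4, 48.7 and 62.1 CPM in tumor, against 184, 229, 252 and 244 CPM in small intestine. All tumor libraries lay far below all small intestine libraries, the opposite of its substrate Myl9. The log2 fold change was -2.14 ± 0.14 with TMM (edgeR adjusted p = 1e-06) and -1.27 with library totals, also called. The Mylk locus makes long, short and non-kinase products, and the gene table does not separate them. Myl6, the essential light chain of smooth muscle and non-muscle myosin (chr10:128490860-128494145), had 298, 283, 326 and 240 CPM in tumor, against 483, 671, 586 and 607 CPM in small intestine. The groups did not overlap with TMM, and the log2 fold change was -1.03 ± 0.14 (edgeR adjusted p = 0.000107). With library totals it was -0.16 and was not called (edgeR adjusted p = 0.218), and with FPKM it was -0.32 and not called (limma adjusted p = 0.0644). Of the 50-base stretches of its longest coding transcript, 18.5% also occur in other annotated genes, so its reads may be split between copies.

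Of the 11 genes whose products bind along the actin filament, 6 rose, none fell and 5 were not called. Of all genes 38.9% were called higher and 35.4% lower. With library totals 10 of the 11 were called higher and 1 was not called, where 62.0% of all genes were called higher. The strongest was caldesmon, Cald1 (chr6:34598500-34775473), which restrains actin-activated myosin in muscle and is also made in non-muscle cells. It had 108, 99.0, 92.5 and 85.7 CPM in tumor, against 5.49, 4.28, 3.78 and 3.26 CPM in small intestine. Both groups were tight and far apart, with a log2 fold change of 4.52 ± 0.18 (edgeR adjusted p = 7.33e-08). Cnn3, the acidic calponin found in many cell types, had 190, 195, 192 and 203 CPM in tumor, against 21.6, 27.3, 32.3 and 17.0 CPM in small intestine. The groups were again well separated, with a log2 fold change of 2.99 ± 0.19 (edgeR adjusted p = 8.75e-07), though 30.3% of its 50-base stretches occur in other genes.

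The other calponins did not pass with TMM. Cnn1, the basic calponin that marks differentiated smooth muscle, had 4.61, 7.87, 6.38 and 3.42 CPM in tumor, against 2.22, 0.707, 4.75 and 3.90 CPM in small intestine. The groups overlapped, since small intestine replicates 3 and 4 exceeded tumor replicate 4, and the log2 fold change was 0.95 ± 0.52 (edgeR adjusted p = 0.123). With library totals Cnn1 was called higher at 1.81. Cnn2, the neutral calponin of smooth muscle and other cells, had 34.0, 28.6, 31.4 and 35.7 CPM in tumor, against 40.9, 66.3, 28.7 and 19.7 CPM in small intestine. The small intestine libraries lay on both sides of the tumor libraries, and the log2 fold change of -0.26 ± 0.31 did not pass (edgeR adjusted p = 0.465). Its sign turned with library totals, to 0.59, and without small intestine replicate 2, to 0.12, and neither value was called.

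Transgelin and its relative behaved differently. Tagln, also called SM22-alpha, an early smooth muscle protein, had 44.4, 39.9, 43.3 and 31.7 CPM in tumor, against 15.4, 9.90, 20.2 and 17.9 CPM in small intestine. All tumor libraries were higher, with a log2 fold change of 1.33 ± 0.21 (edgeR adjusted p = 0.000331). Of its exonic bases 67.9% lie under exons of Pcsk7 or Gm48529, and how the authors' counting treated such reads is not stated by the sources used here. Tagln2, the widely expressed transgelin, had 427, 421, 416 and 419 CPM in tumor, against 368, 306, 214 and 467 CPM in small intestine. The tumor libraries were almost alike and lay inside the small intestine range, and the log2 fold change of 0.31 ± 0.21 was not called (edgeR adjusted p = 0.196). It was called higher with library totals (1.19) and, with TMM, without small intestine replicate 4 (0.50).

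Among the tropomyosins, which lie in the groove of the actin filament, Tpm4 rose clearly. Tpm4 had 310, 292, 293 and 262 CPM in tumor, against 79.8, 85.5, 77.0 and 89.9 CPM in small intestine, with a log2 fold change of 1.80 ± 0.09 (edgeR adjusted p = 3.14e-07). The small intestine libraries were nearly level, and the groups were far apart. Tpm1, with isoforms in muscle and other cells, had 422, 426, 438 and 376 CPM in tumor, against 337, 359, 366 and 429 CPM in small intestine. These overlapped, and its log2 fold change of 0.16 ± 0.11 was not called with TMM (edgeR adjusted p = 0.218), whereas with library totals it was called higher at 1.03. Tpm2, the beta tropomyosin of muscle, had 18.4, 19.4, 18.5 and 16.5 CPM in tumor, against 6.53, 3.59, 17.6 and 7.18 CPM in small intestine. It passed with a log2 fold change of 1.06 ± 0.41 (edgeR adjusted p = 0.038), although small intestine replicate 3 lay among the tumor libraries. That library weighed on the value: without it the log2 fold change was 1.65, and this was the only one of the 8 fits with a library left out in which Tpm2 was called, the others giving edgeR adjusted p of 0.0525 to 0.0989.

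The remaining filament genes were low to moderate. Smoothelin, Smtn, a protein of contractile smooth muscle, had 19.9, 22.2, 23.7 and 21.0 CPM in tumor, against 12.3, 10.0, 18.4 and 10.8 CPM in small intestine. All tumor libraries were higher, and Smtn rose by a log2 fold change of 0.75 ± 0.19 (edgeR adjusted p = 0.00528). Leiomodin, Lmod1, which starts new actin filaments in smooth muscle, had 1.89, 1.99, 2.60 and 1.92 CPM in tumor, against 0.452, 0, 1.39 and 1.00 CPM in small intestine. All tumor libraries were higher here too, but the log2 fold change of 1.57 ± 0.83 did not pass (edgeR adjusted p = 0.112). It was called with library totals (2.43) and without small intestine replicate 2, the library at 0 (1.15).

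The 7 genes of anchorage and intermediate filaments split into 3 that rose, 1 that fell and 3 that were not called, near the 38.9% of all genes called higher. With library totals 6 were called higher and 1 lower. Flna, filamin A, which crosslinks actin and ties it to integrins (chrX:74223461-74249820), had 325, 320, 309 and 298 CPM in tumor, against 53.3, 54.3, 30.9 and 20.5 CPM in small intestine. Actn1, alpha-actinin of dense bodies and stress fibers (chr12:80167547-80260371), had 320, 323, 318 and 279 CPM in tumor, against 39.0, 37.7, 44.9 and 40.3 CPM in small intestine. Neither gene's groups overlapped, and the log2 fold changes were nearly equal, at 2.98 ± 0.30 for Flna (edgeR adjusted p = 1.43e-05) and 2.94 ± 0.10 for Actn1 (edgeR adjusted p = 4.15e-08). Synpo2, a Z-disc and dense body protein that binds actin, rose as well, with 6.60, 6.80, 7.45 and 7.38 CPM in tumor, against 2.95, 1.61, 1.68 and 1.35 CPM in small intestine. Its groups were apart, with a log2 fold change of 1.89 ± 0.26 (edgeR adjusted p = 0.000137).

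Ldb3, a PDZ and LIM protein of the Z-disc known mainly from striated muscle (chr14:34526603-34588682), fell most of all members. It had 9.94, 11.5, 15.7 and 5.29 CPM in tumor, against 134, 169, 123 and 186 CPM in small intestine. Every small intestine library was many times above every tumor library, with a log2 fold change of -3.85 ± 0.32 (edgeR adjusted p = 4.41e-06), and of -2.98 with library totals, also called. Acta1, the skeletal alpha actin and no member of the 31, also fell, with 1.59, 1.23, 1.84 and 2.01 CPM in tumor, against 68.2, 180, 9.51 and 48.4 CPM in small intestine (-5.52 ± 0.80; edgeR adjusted p = 0.000179). Of 17 skeletal and cardiac muscle genes looked at, 8 were under 0.1 CPM in every library and 5 of these, Myh2, Myh4, Myh6, Tnnc2 and Nppa, were at 0. Of the 5 that were tested, Acta1 included, 2 rose and 2 fell.

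Desmin and its partners showed no call with TMM. Des, the muscle intermediate filament protein, had 14.7, 23.8, 23.3 and 16.4 CPM in tumor, against 13.9, 8.90, 20.9 and 10.1 CPM in small intestine. The groups overlapped at small intestine replicate 3, and the log2 fold change was 0.54 ± 0.28 (edgeR adjusted p = 0.111). It was called without that library (0.83) and with library totals (1.38). Synm, synemin, which links desmin to the membrane, had 2.12, 2.30, 2.60 and 1.47 CPM in tumor, against 1.79, 0.318, 2.16 and 1.36 CPM in small intestine (log2 fold change 0.59 ± 0.49, edgeR adjusted p = 0.293). Pgm5, a catalytically inactive relative of phosphoglucomutase found at adherens junctions of muscle, had 1.31, 1.66, 1.82 and 1.05 CPM in tumor, against 0.521, 0.195, 1.32 and 1.57 CPM in small intestine (log2 fold change 0.69 ± 0.55, edgeR adjusted p = 0.276). In both genes the groups overlapped and small intestine replicate 2 was the lowest library. With library totals both were called higher, Synm at 1.44 and Pgm5 at 1.57.

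All 3 genes that control contraction or its transcription rose, from low levels, where 38.9% of all genes were called higher. Myocd, myocardin, the partner of serum response factor in smooth and cardiac muscle, had 0.794, 0.470, 0.335 and 0.812 CPM in tumor, against 0, 0, 0 and 0.121 CPM in small intestine. Counts were found in every tumor library and in a single small intestine library. The fitted log2 fold change of 4.19 ± 0.91 (edgeR adjusted p = 0.00232) depends on that library, since without it the small intestine is at 0 and the fit gave 8.42, a value set by the prior count. Kcnmb1, the smooth muscle beta subunit of the large-conductance calcium-activated potassium channel, had 3.16, 2.91, 3.30 and 3.26 CPM in tumor, against 0.156, 0.0177, 0.168 and 0.138 CPM in small intestine. The tumor libraries were level and far above the rest, with a log2 fold change of 4.71 ± 0.47 (edgeR adjusted p = 1.51e-05) that rests on 26 counts over the 4 small intestine libraries. Mrvi1, the substrate through which cGMP kinase damps calcium release, had 4.02, 3.38, 5.16 and 3.94 CPM in tumor, against 2.99, 1.63, 2.31 and 2.79 CPM in small intestine. It rose by 0.76 ± 0.25 on the log2 scale (edgeR adjusted p = 0.0194), with the groups apart, but not without tumor replicate 3 (0.67; edgeR adjusted p = 0.0515).

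All 4 mural and vascular genes rose, where 38.9% of all genes were called higher. Rgs5, a regulator of G protein signalling that marks pericytes, had 60.3, 55.9, 57.6 and 50.5 CPM in tumor, against 6.04, 5.01, 6.68 and 4.78 CPM in small intestine. Mcam, CD146, an adhesion molecule of pericytes and endothelium, had 41.0, 43.4, 33.3 and 34.5 CPM in tumor, against 2.87, 4.90, 4.26 and 3.07 CPM in small intestine. Both were about an order of magnitude higher with no overlap, with log2 fold changes of 3.32 ± 0.13 for Rgs5 (edgeR adjusted p = 8.37e-08) and 3.33 ± 0.20 for Mcam (edgeR adjusted p = 6.72e-07). Notch4, a Notch receptor of endothelium, had 15.5, 17.1, 15.3 and 13.3 CPM in tumor, against 4.90, 4.69, 6.76 and 4.42 CPM in small intestine. It was higher in every tumor library, by 1.56 ± 0.17 on the log2 scale (edgeR adjusted p = 2.89e-05). Cspg4, the NG2 proteoglycan of pericytes, had 4.87, 4.15, 4.71 and 6.81 CPM in tumor, against 3.28, 0.460, 1.24 and 2.29 CPM in small intestine. Its log2 fold change of 1.49 ± 0.50 passed (edgeR adjusted p = 0.0224), but not without tumor replicate 4 (1.37; edgeR adjusted p = 0.0507) or small intestine replicate 3 (1.35; edgeR adjusted p = 0.0592).

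Levels of different genes can be set beside each other only per length, on the authors' FPKM scale. In tumor the order of mean FPKM began with Myl6 (487 ± 52.3), Tagln2 (328 ± 8.22), Tpm1 (251 ± 13.5) and Tpm4 (175 ± 10.7; SD, n = 4 throughout). In small intestine the same 4 genes led, with mean FPKM of 610 ± 92.4 for Myl6, 140 ± 37.3 for Tagln2, 132 ± 8.93 for Tpm1 and 26.1 ± 1.48 for Tpm4. The neighbours Tagln2 and Tpm1 in small intestine, and Myl9 (120 ± 67.2) and Cnn3 (118 ± 4.64) in tumor, did not differ beyond their spread. Below these leaders the order differed between tissues. Ldb3 (2.56 ± 0.951 FPKM) was number 23 in tumor, against number 5 in small intestine (19.5 ± 3.15). Mylk (6.33 ± 1.00 FPKM) was number 19 in tumor, against number 6 in small intestine (15.1 ± 2.02). Cald1 (29.8 ± 2.73 FPKM) was number 10 in tumor, against number 21 in small intestine (0.733 ± 0.266). Acta2 reached 42.5 ± 3.18 FPKM in tumor and 4.69 ± 2.37 FPKM in small intestine, and Myocd came last in both, at 0.196 ± 0.0607 and 0.00664 ± 0.0133 FPKM.

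The FPKM values were also tested with limma on log2(FPKM + 1). Genes whose FPKM averaged under 1 were not tested, which left out 7 low members, namely Lmod1, Synm, Pgm5, Myocd, Mrvi1, Kcnmb1 and Cspg4. Of the 24 others 20 were called higher in tumor, where 64.6% of all genes tested on this scale were. The 2 called lower, Mylk and Ldb3, compare with 18.1% of all genes, and Myl6 and Cnn2 were not called. In either direction 82.7% of all genes were called on this scale. The 20 include Tagln2, Tpm1, Cnn1 and Des, which TMM-scaled counts did not call. FPKM carry no composition correction, as library totals do not.

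The small intestine libraries differed among themselves in these genes more than in other genes. The highest library over the lowest had a median ratio of 2.18 over 29 members, beside 1.60 over all genes. In tumor the same median was 1.29 over 31 members, beside 1.31 over all genes. No test was made of these spreads, and the members were not matched to other genes by level. Small intestine replicate 3 was the highest library of its group for 17 of 31 members, where it was so for 28.4% of all genes. Small intestine replicate 2 was the lowest for 16 of 31, where it was so for 23.1% of all genes. Both held at once for 13 members. The range differed from gene to gene. Among the 29 members above 0 in every small intestine library, highest over lowest was 9.50 for Kcnmb1, 8.69 for Myl9, 8.07 for Pgm5, 7.94 for Actg2 and 7.14 for Cspg4, the widest. Some of these rest on few reads: small intestine replicates 1 to 4 had 9, 1, 8 and 8 counts of Kcnmb1, and 30, 11, 63 and 91 of Pgm5. Highest over lowest was 3.36 for Cnn2, 2.65 for Flna, 2.35 for Des, 2.04 for Tagln and 1.84 for Smtn. The narrowest were 1.17 for Tpm4, 1.19 for Actn1, 1.27 for Tpm1 and 1.37 for Mylk. Tpm4, Actn1 and Tpm1 are among the genes named above as also used by cells that are not muscle, as are Cnn2 and Flna, which ranged wider. For Mylk, whose long, short and non-kinase products were not separated, the cells of origin were not tested. Cnn2, Tagln2, Flna and Cald1 were among those that went another way, with replicate 3 below the group mean. Without replicate 2, 20 members were called higher and 3 lower, and the same counts were found without replicate 3.

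**Figure D3:**
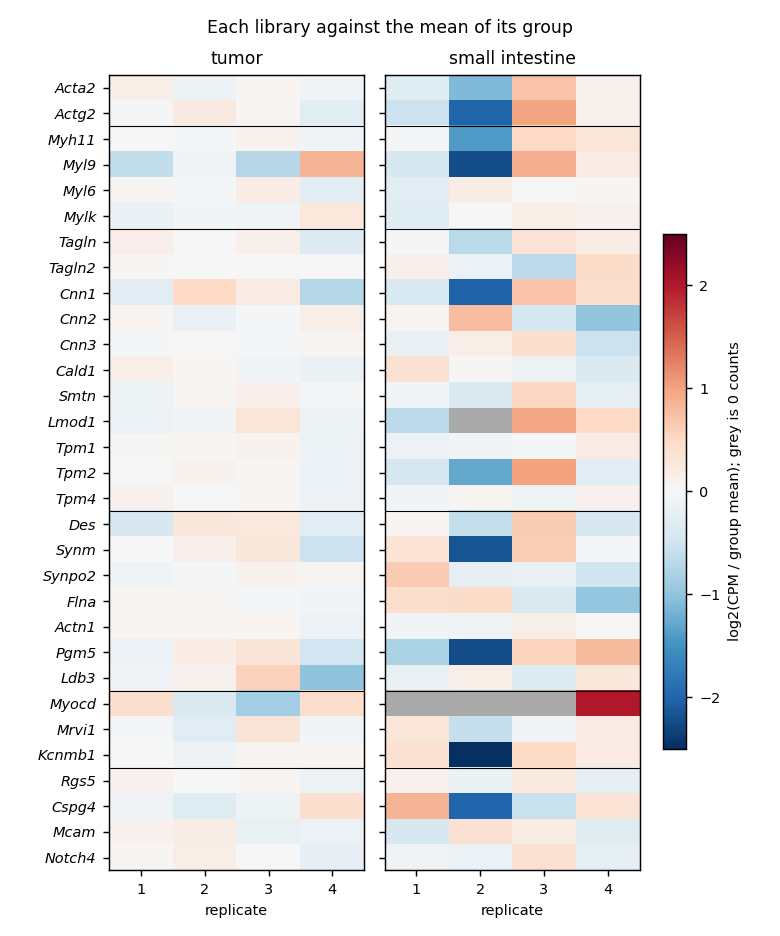
Each library's CPM against the mean of its own group (log2, color scale) for the 31 members, tumor replicates on the left and small intestine replicates on the right; grey cells had 0 counts. In small intestine, replicate 2 is blue and replicate 3 red for Acta2, Actg2, Myl9, Cnn1 and Tpm2, while most tumor cells are pale.

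Ratios of gene pairs inside a library do not depend on how libraries are scaled. Of the 15 pairs, 13 join members and 2 set a member against a gene outside the 31, Acta2 against Actb and Myh11 against Myh9. In 5 pairs, Acta2/Actb among them, the log2 ratios of counts did not overlap between the groups, at the smallest p that an exact 2-sided permutation test of 4 against 4 allows (0.0286). Adjusted over the 15 pairs this is 0.0857, so no pair passed. The log2 ratio of Myl9 to Myl6 averaged -1.38 ± 0.89 in tumor and -6.26 ± 1.43 in small intestine (SD, n = 4 each, as for the pairs that follow). The log2 ratio of Acta2 to Actb, the cytoplasmic beta actin, averaged -4.93 ± 0.15 in tumor and -9.60 ± 0.80 in small intestine. Actb itself averaged 2030 CPM in tumor, against 8920 CPM in small intestine, so the muscle actin was a larger part of the pair in every tumor library. Within the muscle genes, Myh11 against Acta2 averaged -1.48 ± 0.10 in tumor and 0.07 ± 0.30 in small intestine. Des against Acta2 averaged -1.80 ± 0.42 in tumor and 0.16 ± 0.46 in small intestine. Myosin heavy chain and desmin were therefore each lower relative to alpha actin in tumor, in every library. Tpm1 against Tpm4 averaged 0.52 ± 0.06 in tumor and 2.16 ± 0.10 in small intestine, the tightest of the 5 pairs.

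The other 10 pairs overlapped between the groups in counts. Actg2 against Acta2 averaged -1.71 ± 0.25 in tumor and -1.34 ± 0.50 in small intestine, a difference of -0.36 (exact permutation p = 0.257). Rgs5 against Acta2 averaged -0.25 ± 0.08 in tumor and -1.03 ± 0.66 in small intestine, a difference of 0.78 (exact permutation p = 0.114), and with FPKM a difference of 0.88 without overlap. Actn1 against Flna averaged -0.02 ± 0.06 in tumor and 0.13 ± 0.74 in small intestine, a difference of -0.15 (exact permutation p = 0.6) that turned to 0.12 with FPKM. Synm against Des differed by 0.27 (exact permutation p = 0.8), which turned to -0.48 with FPKM. Tagln against Tagln2 differed by 0.99 and Cspg4 against Rgs5 by -1.53 (exact permutation p = 0.0571 each, adjusted 0.122), and with FPKM Cspg4 against Rgs5 differed by -2.43 without overlap. The remaining pairs, Cnn1 with Cnn2 or Cnn3, Tpm2 with Tpm4 and Myh11 with Myh9, had differences between -1.85 and 1.31 at exact permutation p of 0.0857 or more. Without small intestine replicate 2, 10 of the 15 pairs did not overlap.

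**Figure D4:**
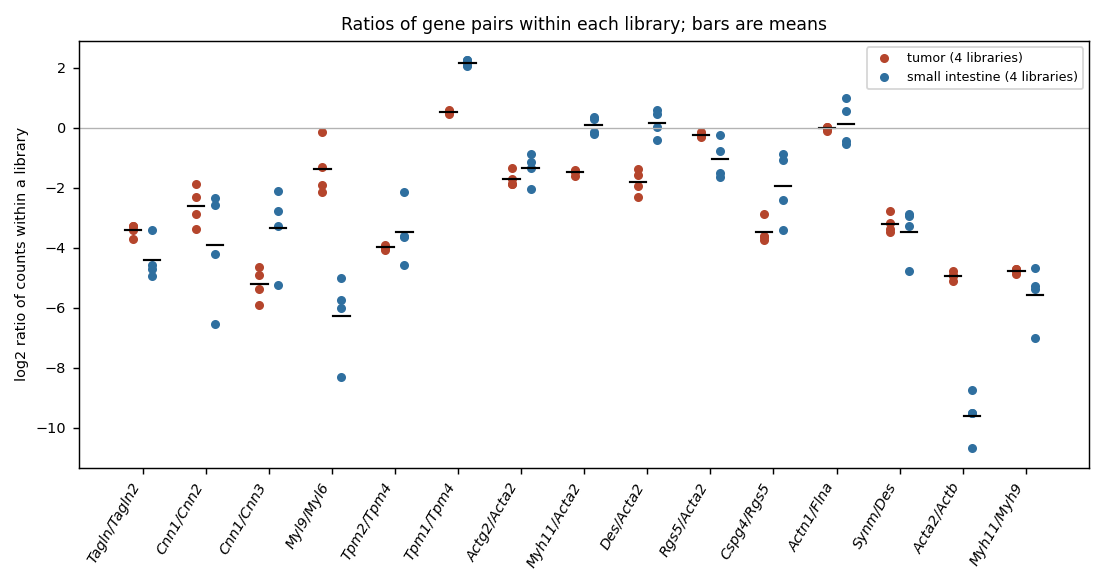
Log2 ratio of the counts of gene pairs within each library, tumor (red, left) and small intestine (blue, right), with bars for group means. The groups are apart for Myl9/Myl6, Tpm1/Tpm4, Myh11/Acta2, Des/Acta2 and Acta2/Actb.

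Other genes of contraction moved in both directions, and their counts are to be read beside the 38.9% of all genes called higher and 35.4% called lower with TMM, and the 62.0% and 17.6% with library totals. Of 26 tested genes that signal to the contractile apparatus, 12 rose, 4 fell and 10 were not called, with a median log2 fold change of 0.98. The endothelin receptors Ednra (6.78 ± 0.51) and Ednrb (4.89 ± 0.38) and the cGMP kinase gene Prkg1 (4.07 ± 0.49) rose most on the log2 scale. Pde5a, the phosphodiesterase that breaks down cGMP, fell by 1.88 and was also called with library totals. Rgs2 (-0.92 with TMM, -0.05 with library totals) and the myosin phosphatase subunit Ppp1r12a (-0.85 with TMM, 0.03 with library totals) fell with TMM only. With library totals 19 of these genes were called higher and 1 lower.

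Of 27 tested genes of dense plaques and linkers, 17 rose, 2 fell and 8 were not called, with a median of 1.56, and with library totals 23 were called higher and 2 lower. Dtna (5.92 ± 0.92), of the dystrophin complex, and filamin C, Flnc (5.14 ± 0.49), rose most, whereas zyxin, Zyx, a focal adhesion protein, fell by 1.25. The integrin-linked kinase Ilk was also called higher, but from a mean of only 0.211 CPM in tumor, against 0.00525 CPM in small intestine, while its FPKM were 49.5 in tumor and 25.7 in small intestine. Its counts therefore disagree with the deposited FPKM and are not relied on, although it is among the 17. Of 17 tested genes of a list of other contractile genes, which shares Ppp1r12b with the signalling list, 12 rose and none fell (5 were not called), with a median of 2.39, and with library totals 16 were called higher and none lower. The matrix ligand Npnt (5.79 ± 0.35), the small heat shock protein Hspb8 (4.47 ± 0.33) and calsequestrin 2, Casq2 (4.40 ± 0.78), led on the log2 scale.

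Of 13 tested transcription factors 6 were called higher, 6 lower and 1 neither, a split close to that of all genes with TMM (38.9% higher and 35.4% lower). The gut mesenchyme factors Foxf1 (3.63 ± 0.23), Foxf2 (3.24 ± 0.20) and Nkx2-3 (2.82 ± 0.26) rose. Prrx1 fell by 2.74, Mef2c by 1.94 and Srf, serum response factor itself, by 1.07 on the log2 scale. With library totals Srf (-0.20) and Mef2c (-1.08) were not called and 9 of the 13 were called higher and 1 lower, so this balance rests on the scaling. Of 14 tested non-muscle relatives of the members 5 rose and 5 fell with TMM, again close to all genes, and with library totals 9 were called higher and 4 lower. The non-muscle myosin Myh10 rose (3.48 ± 0.45), and the intermediate filament gene Vim rose (2.24 ± 0.29). The myosin Myh14 fell by 2.84, Actb by 2.14 and Actn4, the other alpha-actinin of non-muscle cells, by 1.52, all 3 also called lower with library totals.

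Markers of several other cell types rose along with the members. The marker counts here and in the next paragraph are with TMM unless library totals are named. They are to be read beside the 38.9% of all genes called higher and 35.4% called lower. All 12 endothelial markers rose, with a median of 3.67 and summed levels of 321 to 385 CPM in tumor, against 15.8 to 46.7 CPM in small intestine. Of 15 fibroblast markers 12 rose and 2 fell, with summed levels of 1490 to 2450 CPM in tumor, against 42.6 to 250 CPM in small intestine. That list counts Acta1, which is 1 of the 2 that fell and which alone had 180 CPM in small intestine replicate 2, the library at the top of the range. The other that fell was Fap, at -2.12 ± 0.41 on the log2 scale (edgeR adjusted p = 0.00119). Fap was also called lower with library totals (-1.27). Of 13 tested pericyte markers 9 rose and 1 fell, with 124 to 161 CPM in tumor, against 20.1 to 36.3 CPM in small intestine, led by Steap4 (5.48 ± 0.82) and Notch3 (4.81 ± 0.41). Markers of interstitial cells of Cajal, the pacemakers of gut muscle, rose for 5 of 8 tested, and the other 3 were not called. The log2 fold changes of this list ran from -0.91 to 5.25, so its genes did not move together. Their summed levels were 118 to 161 CPM in tumor, against 21.9 to 30.2 CPM in small intestine. Ano1, a chloride channel of these cells, had the highest tumor mean of that list. It averaged 72.0 CPM in tumor, against 4.43 CPM in small intestine (4.02 ± 0.33 on the log2 scale). Its tumor libraries were uneven, with 92.8, 73.8, 88.4 and 33.2 CPM in replicates 1 to 4. With library totals 12 endothelial, 13 fibroblast, 11 pericyte and 6 Cajal cell markers were called higher, where 62.0% of all genes were.

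Several nerve and glia markers were near 0. Of 14 neuronal genes 9 were tested, 5 rose and 2 fell, with summed levels of 36.1 to 56.3 CPM in tumor, against 8.36 to 18.6 CPM in small intestine, and Elavl4 and Elavl3 were under 0.1 CPM in every library. Of 8 glial genes 3 were tested, 2 of which rose and 1 fell, and Sox10 and Foxd3 were under 0.1 CPM in every library. The summed level of the glial genes, 106 to 133 CPM in tumor, against 740 to 996 CPM in small intestine, was nearly all Erbb3, which averaged 120 CPM in tumor, against 858 CPM in small intestine, and which epithelium also expresses. Of 7 mesothelial genes 4 were tested, 1 of which rose and 2 fell. Epithelial markers went the other way with TMM, 9 of 10 falling, with 6700 to 9390 CPM in tumor, against 22300 to 31000 CPM in small intestine. With library totals 7 were called lower, 2 higher and 1 neither, where 17.6% of all genes were called lower and 62.0% higher. Of 12 pancreas and fat genes 3 were tested, of which 1 rose and 1 fell. The part that these cell types have in the change of the members was not tested.

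**Figure D5:**
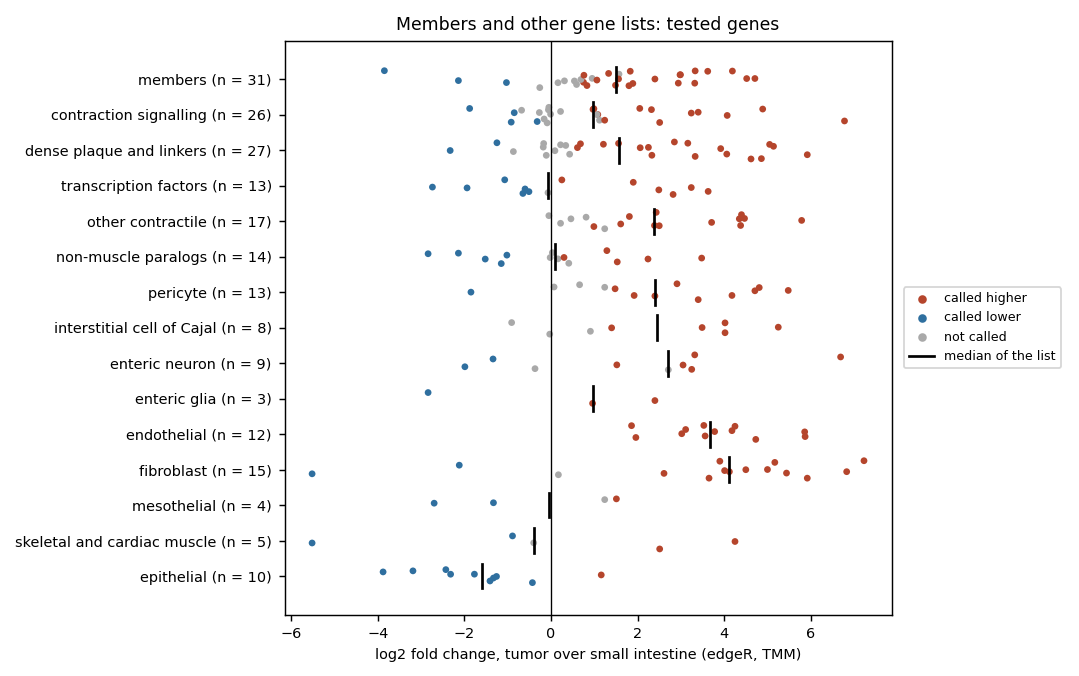
Log2 fold change of tumor over small intestine (TMM) for every tested gene of the 31 members and of the other gene lists, colored by call, with a bar at each list's median. The members spread on both sides of 0 with a median of 1.49, the endothelial genes all lie to the right, and the epithelial genes lie to the left but for Krt18.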

How the data were processed

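Both deposited tables cover all 8 libraries: raw counts of reads per gene, used as the authors deposited them, and FPKM, which the authors scaled by library size and gene length. The submitters' processing notes name STAR, HTSeq 0.6.0, Cufflinks 2.2.1, FastQC and the build GRCm38. Parameters, annotation release, strand setting and the rule for reads shared between genes are not stated by the sources used here. Symbols and GRCm38 coordinates were matched by Ensembl identifier (42462 of 43629 genes). Groups follow the tissue labels.

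Counts were tested with edgeR 4.0.16 (quasi-likelihood, TMM, filterByExpr, tissue as the only term) in R 4.3.3, and FPKM with limma 3.58.1 (trend) on log2(FPKM + 1), which understates changes of low genes. P values were adjusted by Benjamini and Hochberg over all genes tested, and an adjusted p under 0.05 was called. Pair ratios used counts + 0.5 and exact 2-sided permutation tests. The count test was first tested on simulated data, in which few genes changed and rises equalled falls. These data differ from that setting, so the simulation cannot decide between TMM and library totals. Lists were only counted. All members could be named, and from each other list up to 3 called genes with the largest rise and 3 with the largest fall, plus the genes of pairs; some genes that this rule names are not reported here. Members and lists were chosen with earlier results of these data known. Alternatives were DESeq2 1.42.0 (size factors, Wald test), library totals, other filters and pseudocounts, a replicate block, and leaving out single libraries. Within groups, any pair of libraries differed by more than sampling noise (chi-square over its degrees of freedom at least 38.9). Depth limits the precision of the low members.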

Additional observations from a re-analysis of the deposited data

Results flagged for a closer look

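In 3 of the 62 sets of 4 libraries examined (31 members in each tissue), 1 library stood apart from the other 3 of its group by Dixon's test at 95%, and chance alone gives about 1 in 20 such sets. Lmod1 had 2.60 CPM in tumor replicate 3, where the other tumor libraries had 1.89 to 1.99 CPM. Actn1 had 279 CPM in tumor replicate 4, where the other tumor libraries had 318 to 323 CPM, all far above small intestine. Myocd had 0.121 CPM in small intestine replicate 4, where the other small intestine libraries had 0. With all others at 0 the Dixon ratio is 1.0 for any value above 0, so the rate of 1 in 20 does not apply to Myocd.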

How the results depend on the processing

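With DESeq2's size factors, its Wald test, and no low-count filter, 20 members were called higher and 3 lower, as with TMM. With library totals these were 27 and 2, and with a mean of at least 1 CPM 18 and 3, Myh11 (0.81, edgeR adjusted p = 0.0501) losing its call and Myocd not being tested. Leaving out each library in turn gave 17 to 20 higher and 3 lower. FPKM gave 20 higher and 2 lower with a pseudocount of 0.1, 27 and 2 with no filter, and 20 to 21 and 2 to 3 with a library left out. The log2 fold change of Cnn2 turned positive with library totals (0.59) and without small intestine replicate 2 (0.12; -0.49 to 0.12 with any library left out), and with FPKM the pair differences of Actn1/Flna (0.12) and Synm/Des (-0.48) turned sign. Pairs without overlap numbered 5, 7 with FPKM, and 5 to 10 with a library left out. Among the 174 tested genes of other lists, 101 were called higher and 35 lower, but 130 and 20 with library totals. The cause of these shifts was not tested, except that library totals move the median of all genes by 0.86. Same-numbered libraries did not deviate together (correlations of -0.203 to 0.00679). Tumor and small intestine of the same mouse need not deviate together, so this cannot decide whether the numbers pair the libraries. With a replicate block 20 members were called higher and 3 lower, or 20 and 2 with FPKM. Depth limits Myocd, Kcnmb1, Pgm5 and Lmod1, which had few counts in small intestine.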
